A study of Danio rerio with 4 samples.

Results

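The transcripts described are those of 10 neuropeptide genes, most of them made in the hypothalamus, in whole zebrafish embryos: gnrh2, gnrh3, adcyap1a, adcyap1b, npy, agrp, hcrt, oxt, avp and crhb. They were chosen by gene symbol on the array, or by the gene named in the probe description where the symbol was older, and 20 of the array's 43603 gene probes measured them. A probe was kept if both readings of any RNA pool were well above background; 18 of the 20 passed, among them the brightest probe of each of the 10 genes, and 18873 genes of the series were kept in all. Msp mutants were compared with wild-type embryos of the wik strain at 3 and 6 days post fertilization (dpf). Msp, macrophage stimulating protein, is a secreted ligand of the hepatocyte growth factor family encoded by mst1. Neither the allele nor the lesion is named in the labels, and 3 dpf and 6 dpf embryos of both genotypes came from mutant or wild-type crosses kept untreated in E3 medium at 28 °C. Total RNA of 30 embryos made up each pool, and the 2 pools of a stage were hybridised against each other on 2 two-colour arrays with the dyes swapped, on 1 slide of 4 arrays.

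Neuropeptides are cut from larger precursors in secretory granules and act on receptors of nearby neurons, of the pituitary or of distant organs. In fish, separate small groups of neurons make the peptides that control reproduction, feeding, arousal, water balance and the stress axis, and most of these neurons are already present in the larva. GnRH2 is an exception within the group, since its neurons in fish lie in the midbrain. RNA of a whole embryo averages these few cells with all other tissues, so fewer cells of a type and less RNA per cell cannot be told apart, and the site of expression cannot be checked.

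Each genotype was represented by 1 pool per stage, so there were no biological replicates within a stage. Mutant and wild-type pools also came from different crosses. Genotype therefore cannot be told apart from cross or clutch, either within a stage or in limma's test over both stages. The SD given with each ratio covers the 2 dye-swapped arrays, taken as the same extracts, and measures labelling and hybridisation only. Mutant over wild-type ratios of the 2 arrays correlated across 18873 genes with r = 0.41 at 3 dpf and 0.40 at 6 dpf, a description across genes of arrays that share their pools. The number of arrays limits the precision for the pools themselves, and the single pool per genotype and stage limits what can be said of the genotype. Median spot signals were 146.5 to 154 units in Cy3 over a background of 47.5 to 49, and 167 to 187 in Cy5 over 87 to 87.5. mst1 itself had a log2 ratio of −0.65 ± 0.06 at 3 dpf and −1.12 ± 0.16 at 6 dpf, and it fell in limma's test of genotype over both stages (log2 −0.89, adjusted p = 0.0426). Where its probe lies relative to the lesion was not given in the sources used here.

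Of the 10 genes, gnrh2 stood apart at 6 dpf. GnRH2 is a decapeptide conserved from fish to mammals and is linked in fish to feeding and sexual behaviour. Its brightest probe, A_15_P132616, gave a normalised log2 signal in the wild-type pool at 3 dpf of 7.33 and 7.43 on arrays 1 and 2. For the mutant pool at 3 dpf the readings were 7.23 and 7.46. At 6 dpf the wild-type pool gave 8.06 and 7.85, against 9.73 and 9.92 in the mutant pool. The genotypes overlapped at 3 dpf, and at 6 dpf both mutant readings lay above both wild-type readings. As mutant over wild-type log2 ratios these readings gave −0.03 ± 0.09 at 3 dpf and 1.87 ± 0.29 at 6 dpf, the latter 3.65-fold.

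The other probes of gnrh2 gave the same picture. A_15_P632056 had log2 ratios of 1.72 and 1.69 on the 6 dpf arrays, a mean of 1.70 ± 0.02, against 0.15 ± 0.20 at 3 dpf. A_15_P658651 had 1.36 and 1.69 at 6 dpf, a mean of 1.52 ± 0.23, against −0.05 ± 0.21 at 3 dpf, where 1 of the 2 wild-type readings was well above background. By the means of the 2 arrays, all 3 probes were thus at least 2.88-fold higher in the mutant pool at 6 dpf. At 3 dpf these means were within 0.15 of no difference on the log2 scale. Single readings at 3 dpf reached 0.29 for A_15_P632056 and −0.20 for A_15_P658651, both on array 1. Whether the probes read the same stretch of the transcript is not given in the files.

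**Figure D1:**
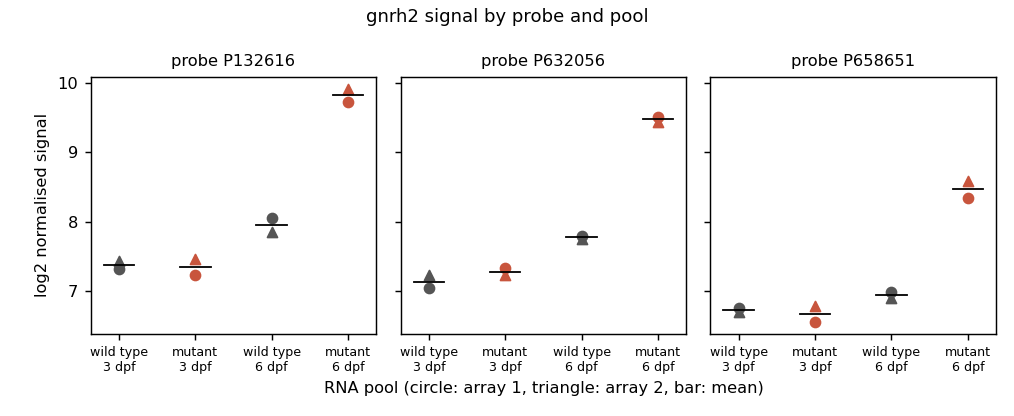
Normalised log2 signal (vertical axis) of the 3 gnrh2 probes in the 4 RNA pools; circles are array 1, triangles array 2 and bars their mean. On every probe the mutant pool at 6 dpf lies above the other 3 pools, with means of 9.82, 9.48 and 8.47.

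gnrh3, the form that reaches the pituitary and also marks the terminal nerve in zebrafish, did not share this pattern. Its brightest probe, A_15_P656426, had log2 ratios of −0.41 and 0.08 on the 3 dpf arrays and of −0.24 and −0.23 on the 6 dpf arrays. A_15_P114269 had 0.19 and 0.01 at 3 dpf and 0.22 and 0.21 at 6 dpf. The probes therefore differed in sign at both stages, and no direction is given for the gene. Both were dim, and the mutant pool at 6 dpf was well above background on 1 of 2 arrays for the first probe. With the scanner's own processed signals the first probe read −0.71 at 6 dpf, and with the mean of its probes the gene read −0.01.

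The 2 zebrafish genes for PACAP, a peptide of the secretin family that raises cyclic AMP, gave small ratios. adcyap1a had 1 probe, with log2 ratios of −0.53 and −0.28 on the 3 dpf arrays and of 0.02 and 0.15 on the 6 dpf arrays. It was lower in the mutant pool at 3 dpf (−0.40 ± 0.18, 0.76-fold) and close to equal at 6 dpf (0.08 ± 0.09). With the scanner's processed signals, which compress dim probes less, the 3 dpf value was −0.75. adcyap1b had 4 probes, and the brightest, A_15_P630641, gave 0.15 and 0.12 at 3 dpf and 0.21 and 0.16 at 6 dpf. Its other 3 probes had means of 0.11 to 0.45 at 3 dpf and of 0.11 to 0.26 at 6 dpf, so all 4 means lay above 0 at both stages, although 1 probe read −0.02 on 1 array.

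Among the feeding and arousal peptides, npy was the most even across arrays. NPY stimulates feeding, and its log2 ratio on A_15_P182191 was 0.26 and 0.17 at 3 dpf and 0.29 and 0.34 at 6 dpf, with means of 0.22 ± 0.07 and 0.31 ± 0.04. All 4 readings lay above 0. AgRP, which blocks melanocortin receptors and also stimulates feeding, had ratios on A_15_P362840 of −0.10 and −0.40 at 3 dpf and of 0.14 and 0.08 at 6 dpf. Its readings were on opposite sides of 0 at the 2 stages. The second agrp probe, A_15_P447830, did not pass the filter, with −0.26 and −0.02 at 3 dpf and 0.08 and 0.17 at 6 dpf.

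hcrt encodes hypocretin (orexin), which sustains wakefulness. Its brightest probe, A_15_P175696, read −0.32 and −0.22 at 3 dpf and −0.10 and −0.26 at 6 dpf, so all 4 readings were below 0. The means were −0.27 ± 0.07 and −0.18 ± 0.11. This probe was dim, with log2 signals of 6.36 to 7.02, where a signal equal to the background offset alone reads 5.64, and the mutant pool at 6 dpf was well above background on 1 of 2 arrays. With the scanner's processed signals the 6 dpf ratio was −0.83. The deposited series table also held −0.83, but its 6 dpf values follow the scanner's own ratios, so it is no separate measurement. The second probe, A_15_P351705, was well above background on 1 reading alone, in the mutant pool at 6 dpf, and its means of −0.01 and −0.14 are not read further.

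The nonapeptides differed from each other. oxt, which encodes isotocin, the fish form of oxytocin, had ratios on A_15_P103790 of 0.15 and −0.18 at 3 dpf and of 0.00 and −0.22 at 6 dpf. Its second probe, A_15_P130131, had means of −0.01 ± 0.05 and −0.03 ± 0.17. Neither probe separated the genotypes at either stage.

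avp, which encodes vasotocin, the fish form of vasopressin that acts on water balance and on the stress axis, was higher in the mutant pool on all 4 arrays. At 3 dpf the wild-type pool read 8.88 and 9.01 on the log2 scale and the mutant pool 9.48 and 9.45. At 6 dpf the wild-type pool read 8.48 and 8.60 and the mutant pool 8.86 and 9.01. The genotypes did not overlap at either stage. The log2 ratio was 0.52 ± 0.12 at 3 dpf (1.43-fold) and 0.39 ± 0.03 at 6 dpf (1.31-fold), from 1 probe, A_15_P105439.

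crhb encodes corticotropin-releasing hormone, the peptide that drives pituitary ACTH release in the stress response. Its log2 ratio on A_15_P206861 was 0.12 and 0.18 at 3 dpf and 0.23 and 0.25 at 6 dpf. The second probe, A_15_P119649, gave means of 0.15 ± 0.07 and 0.21 ± 0.17. All 8 readings lay above 0, and the largest mean was 0.24 ± 0.01 (1.18-fold).

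**Figure D2:**
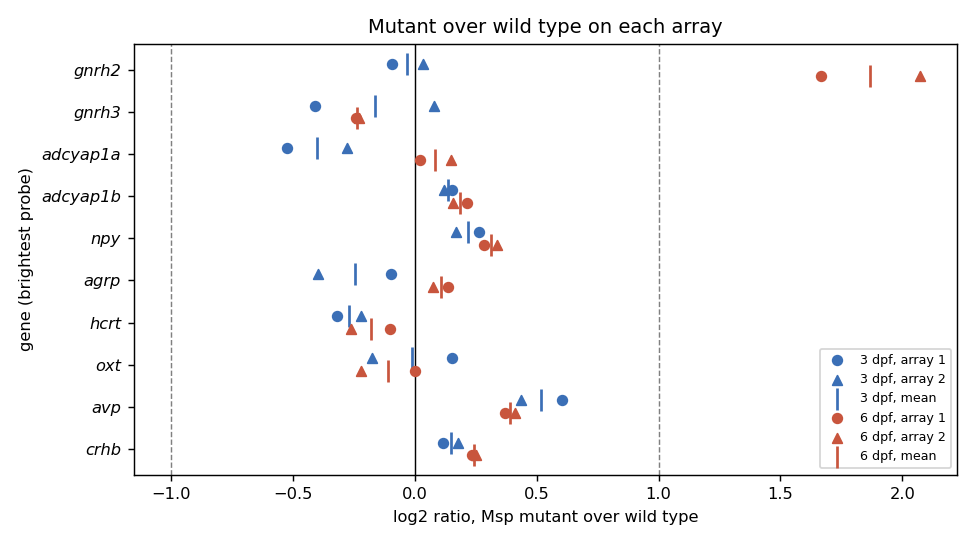
Log2 ratio of mutant over wild type (horizontal axis) of the brightest probe of each gene, on each array (circles and triangles) and as the mean of a stage (bars), at 3 dpf in blue and 6 dpf in red; dashed lines mark 2-fold. gnrh2 at 6 dpf, at 1.67 and 2.07, is the one gene past the dashed lines, and avp lies between 0.37 and 0.60 on all 4 arrays.

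With 1 pool per genotype, a difference within a stage was described by its size: a mean log2 ratio of at least 1 in either direction, at least 0.5 on each array, and the higher pool well above background on both arrays. By this rule 0 of the 10 genes differed at 3 dpf, where 0.323% of all genes tested did. At 6 dpf 1 of 10, gnrh2, was higher and none was lower, and 0.519% of all genes differed in either direction. The median log2 ratio of the 10 genes was −0.02 at 3 dpf and 0.15 at 6 dpf, beside 0.01 for all genes at both stages. Ratios were above 0 for 4 of 10 genes at 3 dpf and for 7 of 10 at 6 dpf, against 54.4% and 52.2% of all genes.

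Genotype over both stages was tested with limma, with the 2 stage ratios of a gene as its 2 values and Benjamini-Hochberg adjustment over all 18873 genes, at an adjusted p threshold of 0.05. None of the 10 genes passed, and 1.04% of all genes did (0.445% rose and 0.593% fell). At an unadjusted p under 0.05 in limma there were 5 of 10, against 13.6% of all genes. Of the 5, npy, avp and crhb lay above 0, and gnrh3 and hcrt, both dim, lay below 0. The second gnrh3 probe had the opposite sign at both stages. The smallest adjusted p was that of avp, with log2 0.45 ± 0.08 (SE) and an adjusted p in limma of 0.0678. It was followed by npy, with log2 0.26 and an adjusted p in limma of 0.211. For gnrh2 the 2 stages differed so much that the mean of 0.92 had an SE of 0.40 and an adjusted p in limma of 0.399. avp passed the threshold with no filter on dim probes (adjusted p in limma 0.0385), with the mean of all probes (0.0481) and without 3 dpf array 2 (0.00849), where gnrh2 passed too (0.0333). avp has 1 probe, so the filter and the mean of probes left its own ratios unchanged. Only the other genes entering limma and the adjustment differed there. Without 3 dpf array 2 the count over all genes also rose, from 196 in the main setting to 757. A left-out array leaves the ratio of its stage on 1 dye orientation, so a dye effect no longer cancels. Without 3 dpf array 2 the 3 dpf ratio of gnrh2 was −0.09, against −0.03 with both arrays. Its 2 stages were therefore no closer to each other there. In the least favourable setting the adjusted p in limma of avp was 0.177. The test of genotype rests on 1 residual degree of freedom and on the spread that limma shares across genes.

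The change from 3 to 6 dpf was tested with limma over the 4 pools with genotype in the model, at an adjusted p under 0.05 and a log2 change of at least 1. 2 of the 10 genes rose, gnrh2 and npy, and none fell; among all genes 10.3% changed (4.95% rose and 5.36% fell). Without the fold limit 6 of 10 passed, close to the 61.3% of all genes that did, and at an unadjusted p under 0.05 there were 8 of 10, against 66% of all genes. Like the test of genotype, this test rests on 1 residual degree of freedom and on the spread that limma shares across genes. Both genotypes of a stage share its arrays, so a shift common to the arrays of a stage is not in the error of this test. With no normalization between arrays the median of all genes moved by −0.24, and 18.1% of the genes that changed rose, against 48.0% in the main setting.

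npy gave log2 signals of 7.63 and 7.74 in the wild-type pool and of 7.90 and 7.91 in the mutant pool at 3 dpf. At 6 dpf it gave 9.01 and 8.98 in the wild-type pool and 9.29 and 9.32 in the mutant pool. No 2 pools overlapped, and the order was the wild-type and then the mutant pool of 3 dpf, followed by the wild-type and then the mutant pool of 6 dpf. The change over both genotypes was 1.35 ± 0.07 (SE) with an adjusted p in limma of 7.16e-05. It was 1.30 in the wild-type and 1.40 in the mutant pools. With no normalization between arrays it was 0.99, just under the fold limit, and 1.22 above the median of all genes in that setting.

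gnrh2 rose by 1.53 ± 0.40 (SE) on the log2 scale over both genotypes, with an adjusted p in limma of 0.0185. The wild-type pools differed by 0.58 between the stages and the mutant pools by 2.48. The difference of 1.90 between these values had no residual degrees of freedom and was not tested. In wild-type embryos its 3 probes gave 0.58, 0.64 and 0.22, and in mutants 2.48, 2.20 and 1.80.

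crhb came just under the fold limit, with log2 0.97 and an adjusted p in limma of 0.000183, and its second probe gave 0.82. Its signal in the wild-type pool was 7.56 and 7.73 at 3 dpf against 8.54 and 8.61 at 6 dpf. In the mutant pool it was 7.68 and 7.91 against 8.78 and 8.86. The stages did not overlap, while the signals of the genotypes overlapped between arrays at 3 dpf. Within each 3 dpf array crhb was higher in the mutant pool, by 0.12 and 0.18. avp had a lower signal at 6 dpf, with a log2 change of −0.47 and an adjusted p in limma of 0.00309, and −0.40 in the wild-type and −0.53 in the mutant pools.

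The remaining genes had smaller stage differences, none past the fold limit. agrp stood at 0.35 (adjusted p in limma 0.0271) and adcyap1b at 0.30 (adjusted p in limma 0.0142). With no normalization between arrays adcyap1b read −0.19. That was 0.04 above the median of all genes in that setting, against 0.29 above it in the main setting. adcyap1a stood at 0.22, oxt at −0.12, gnrh3 at −0.19 and hcrt at −0.20, with adjusted p in limma of 0.058 to 0.194. For adcyap1a the wild-type pools differed by −0.02 between the stages and the mutant pools by 0.47. No 6 dpf reading of the second agrp probe was well above background. At 3 dpf 1 of 2 arrays was, in each genotype. Its mean signal was 6.45 at 3 dpf against 6.06 at 6 dpf in the wild-type pools, and 6.32 against 6.18 in the mutant pools. The 3 dpf means include 1 array not well above background, so no fold or direction is read from this probe. The change was not tested.

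**Figure D3:**
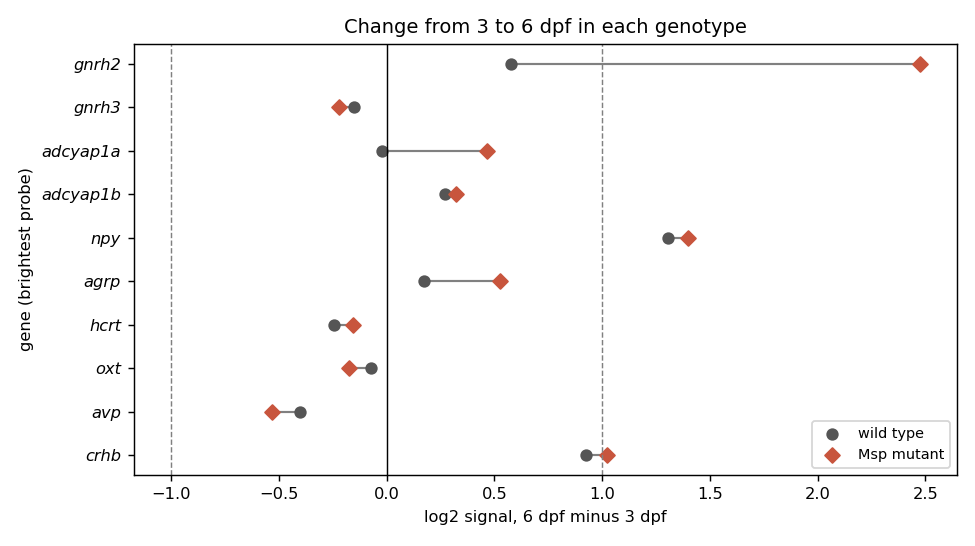
Log2 signal at 6 dpf minus that at 3 dpf (horizontal axis) of the brightest probe of each gene in the wild-type pools (circles) and the mutant pools (diamonds), joined by a line; dashed lines mark 2-fold. The distance between genotypes is 1.90 for gnrh2 and 0.09 for npy, whose 2 values both lie beyond the dashed line.

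For the genes that passed a rule, the 3 named genes nearest in pattern were found by the Euclidean distance between log2 signals of the 4 pools, each gene centred on its own mean. Nearest to gnrh2 were irf1b, an interferon regulatory factor, at a distance of 0.38, gatd3l at 0.71 and ahrra, the aryl hydrocarbon receptor repressor, at 0.73. The log2 ratio of irf1b was 0.38 at 3 dpf and 1.53 at 6 dpf. Its closeness to gnrh2 follows from how it was picked. Nearest to npy were impdh1a, an enzyme of guanine nucleotide synthesis, at 0.06, cd74a, the MHC class II invariant chain, at 0.09 and diabloa, a mitochondrial factor of apoptosis, at 0.10.

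The receptors of these peptides were mostly too dim to follow. Of 32 receptor and binding protein genes listed, 22 had a probe under that name and 9 passed the filter, with 1 of 4 GnRH receptors (gnrhr4) and no hypocretin receptor among them. For gnrhr4 the log2 ratio was 0.00 ± 0.16 at 3 dpf and 0.11 ± 0.09 at 6 dpf. None of the 9 passed a rule for genotype, and 5 of 9 were above 0 at 6 dpf, against 52.2% of all genes. crhbp, whose product binds and neutralises CRH, rose with stage (log2 1.14, adjusted p in limma 0.000115). It was the one of the 9 that passed, where 4.95% of all genes rose. It did not pass with the mean of all probes or with no normalization between arrays. The list's median stage change was 0.13, and −0.01 in the latter setting, where the median of all genes was −0.23.

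Genes of neuropeptide processing and secretory granules passed the filter in 11 of 15 cases. All 11 were above 0 for stage, with a median of 0.67, against 50.7% of all genes above 0. With no normalization between arrays the list's median was 0.34 and that of all genes −0.23. Of the 11, 3 rose, where 4.95% of all genes did: the granins scg2b (log2 1.31) and chgb (1.12), and pcsk1nl (adjusted p in limma 0.000151), an inhibitor of prohormone convertase. The count of 3 was 5 with offset 10 or the scanner's processed signals, 1 with the mean of all probes or without 6 dpf array 1, and 0 with no normalization between arrays. None passed a rule for genotype, and the median log2 ratio was 0.09 at 3 dpf and 0.07 at 6 dpf. Of 47 other neuropeptide and amine enzyme genes 30 were tested, with a median of 0.03 at 6 dpf. Among them pomca, which encodes the ACTH and MSH precursor made in the pituitary and in the hypothalamus, was higher at 6 dpf by a log2 ratio of 1.16 ± 0.15 and stood at −0.12 ± 0.10 at 3 dpf. It was the one of the 30 past the size rule at 6 dpf, where 0.519% of all genes passed. With no background subtraction it did not pass, and with the scanner's processed signals 3 of the 30 passed. pomca was also 1 of the 6 tested pituitary genes, of which 2 passed at 6 dpf and 1 at 3 dpf with processed signals. With stage 3 of the 30 rose, rln3a (1.63), cart2 (1.27) and vip (1.07), and none fell. Among all genes 4.95% rose and 5.36% fell. The median stage change of the 30 was 0.37. With no normalization between arrays it was 0.08, where the median of all genes was −0.23. With the scanner's processed signals 10 of the 30 passed for stage. For genotype none of the 30 passed limma, and 1 did with no filter on dim probes, with all 4 pools above background, with the mean of all probes and by probe, and 2 without 3 dpf array 2.

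No transcription factor of the neuroendocrine hypothalamus passed a rule: 18 of 22 were tested, with a median log2 ratio of 0.13 at 3 dpf and 0.05 at 6 dpf. Their median stage change was −0.27. With no normalization between arrays it was −0.62 and 3 passed for stage, where the median of all genes was −0.23. For stage 2 passed with offset 10, and with the scanner's processed signals 4 passed for stage and 1 passed the size rule at 6 dpf. Of 30 pan-neuronal genes 28 were tested, 20 were above 0 at 6 dpf with a median of 0.08, and none passed a rule for genotype (1 without 3 dpf array 2). Among all genes 52.2% were above 0 at 6 dpf, and with stage 4.95% rose and 5.36% fell. Of the 28, 1 rose with stage (gad1b, 1.19) and 3 fell (tubb5, −2.01, gap43, −1.12, and stmn2b, −1.01). The list's median of 0.03 became −0.36 with no normalization between arrays, where the median of all genes was −0.23. The 6 pituitary genes tested, of 13, had medians of 0.20 at 3 dpf and 0.15 at 6 dpf, and of −0.63 for stage, for which none passed. For stage 3 passed with offset 10, 4 with processed signals, 2 with no normalization between arrays, 1 without 3 dpf array 2 and 2 without 6 dpf array 2. Of 14 genes of interrenal steroid synthesis and corticosteroid response 9 were tested and none passed a rule for genotype; the median ratio was 0.06 at 3 dpf and −0.03 at 6 dpf. In limma 1 passed with no filter on dim probes and 2 without 3 dpf array 2, and 1 passed the size rule at 6 dpf with processed signals. With stage 2 of the 9 rose, klf9 (2.73) and fkbp5 (1.84), both glucocorticoid-responsive. The steroid hydroxylase cyp17a1 (−1.42) was the 1 of the 9 that fell. The shares of all genes were 4.95% and 5.36%.

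Photoreceptor genes were read beside gnrh2 as markers of another cell type. All 16 were tested. At 6 dpf 15 of 16 were above 0 with a median log2 ratio of 0.51, and at 3 dpf 13 of 16 with a median of 0.19. Among all genes 52.2% were above 0 at 6 dpf and 54.4% at 3 dpf. The cone opsins opn1lw1 (1.24 ± 0.07) and opn1mw2 (1.09 ± 0.31) passed the size rule at 6 dpf, where 0.254% of all genes were higher by it. On 6 dpf array 2 opn1mw2 read 0.87. The count of 2 was 1 with the mean of all probes, and 1 and 3 without 6 dpf array 1 and array 2. In limma's test of genotype 0 of 16 passed, against 1 with no filter on dim probes or without 3 dpf array 1 and 5 without 3 dpf array 2. With stage 6 of 16 rose, led by opn1lw1 (3.70), and none fell, where 4.95% of all genes rose and 5.36% fell. The part of photoreceptor genes in the gnrh2 difference was not tested.

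**Figure D4:**
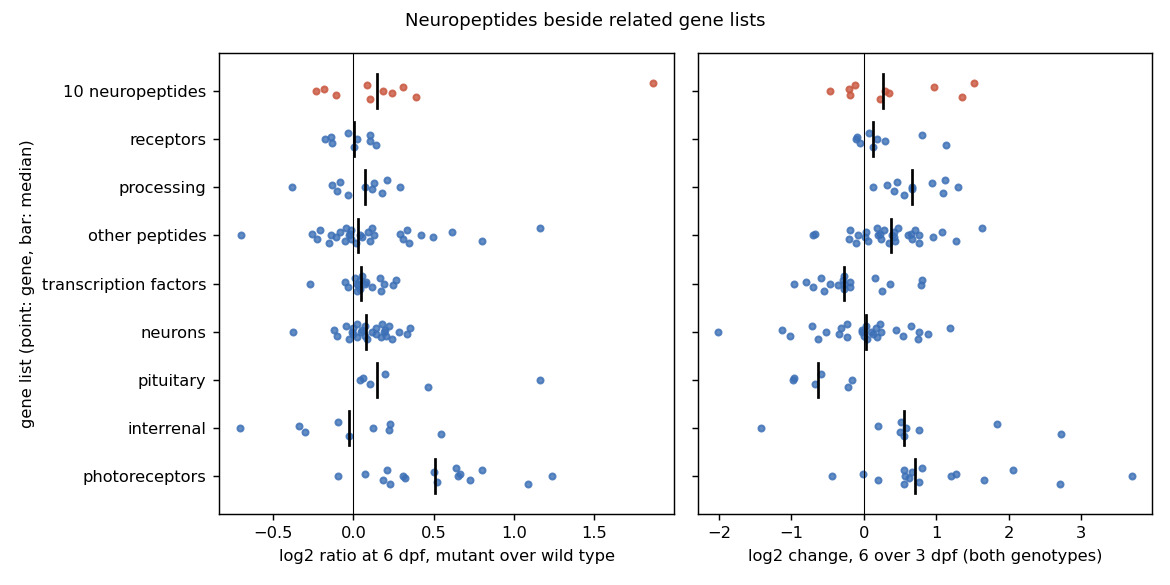
Each point is a gene and each bar a list's median; the left panel shows the log2 ratio of mutant over wild type at 6 dpf and the right panel the log2 change from 3 to 6 dpf over both genotypes. gnrh2 is the rightmost of the 10 neuropeptides on the left at 1.87, and the photoreceptor genes have the highest list median there, 0.51.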

How the data were processed

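The deposited scanner files hold median signal intensity and background intensity per spot and dye; per the file headers they were made with Agilent Feature Extraction 10.5.1.1 (the submitters' processing notes give 8.5.1.1) on a danRer6 (zv8) design. The deposited files' own log10 ratios were compared with the deposited series table, whose values are log2 ratios of mutant over wild type for 3 of its 4 columns. Its column for array 1 of 3 dpf was not used, since it did not follow that array (r = 0.00288 across probes), and its column for array 2 of 6 dpf held the mean of both arrays; each column had a median of 0.

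Signals were background-corrected (normexp, offset 50), normalized by loess within arrays and by Aquantile between arrays in limma 3.58.1 (R 4.3.3). The offset pulls ratios of dim probes towards 0. Control and outlier spots were left out. Ratios were turned to mutant over wild type, the 2 arrays of a stage were averaged, and the brightest probe stood for a gene. 26620 genes had complete values and 18873 passed the background filter. Tests were limma's, across all genes, and were run on simulated data. There, effects were placed on bright spots only, with the same genotype effect at both stages. The check required the right sign and size of genotype estimates and set no condition on the calls. It does not bear on dim probes or on genotype effects that differ between stages.

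All 10 genes and every probe are named; of each list, the genes past a rule (at most 8 per list and comparison); and the 3 nearest in pattern to a gene that passed. The genes, lists and rules were chosen with earlier results of these data known. Alternatives varied the offset, background, normalization, filter, choice of probe and arrays. Tables and figures used Python 3.11.15 with pandas 2.3.3 and matplotlib 3.10.9.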

Additional observations from a re-analysis of the deposited data

Results flagged for a closer look

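Among the 10 neuropeptide genes and the list genes that passed a rule, 5 had both 3 dpf arrays on one side of 0 and both 6 dpf arrays on the other, in the log2 ratio of mutant over wild type. The differences between stages were not tested, since each stage has 1 pool per genotype. adcyap1a went from −0.40 ± 0.18 at 3 dpf to 0.08 ± 0.09 at 6 dpf, a difference of 0.49. agrp went from −0.25 ± 0.21 to 0.11 ± 0.04, a difference of 0.35. pomca went from −0.12 ± 0.10 to 1.16 ± 0.15, a difference of 1.29. opn1mw2 went from −0.06 ± 0.04 to 1.09 ± 0.31, a difference of 1.15. klf9 went the other way, from 0.11 ± 0.06 to −0.34 ± 0.22, a difference of −0.45.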

How the results depend on the processing

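The 2 genotypes of a stage share each array, so each ratio of mutant over wild type already pairs them. The labels give the arrays no replicate number, so no arrays were paired between the stages. Of 462 values of the 10 genes under alternatives, 8 newly passed a threshold, 1 no longer did, and 28 ratios within a stage moved by more than the spread of the arrays. Many ratios within a stage could not move by this measure. The filters, the fit by probe and a left-out array of the other stage leave them unchanged. A left-out array of the same stage always shifts them by less than the SD. The 28 of 462 are therefore no measure of stability. The sign changed in 10 of the 462 values. Of these, 7 were ratios within a stage of gnrh2, gnrh3 and oxt, of at most 0.15 after the change, and 3 were tested values. Those 3 included adcyap1b for stage with no normalization between arrays (−0.19, which was 0.04 above the median of all genes there). The others were agrp and oxt for genotype without 3 dpf array 2. Their ranges over the left-out arrays were −0.146 to 0.00396 and −0.143 to 0.0222. For genotype, 0 genes in the main setting became 1 with no filter on dim probes and 1 with the mean of all probes, and 0 to 2 when an array was left out. avp's adjusted p in limma ranged from 0.00849 to 0.177. For stage, 2 genes became 1 with no normalization between arrays, and 2 to 3 when an array was left out: crhb was added with offset 10 (log2 1.13), with the scanner's processed signals (1.26), without 3 dpf array 2 (1.07) and without 6 dpf array 1 (1.01). The 6 dpf ratio of gnrh2 was 1.67 to 2.30 and passed the size rule throughout. Over all genes, the 61 past the size rule at 3 dpf became 107 with offset 10, 274 with processed signals, 37 with mean probes, 94 counted by probe and 103 without 3 dpf array 2. The 98 at 6 dpf became 163, 327 and 152 with offset 10, processed signals and by probe. The 196 for genotype became 123 with no background subtraction, 31 with processed signals, 395 with no filter, 472 by probe, and 353 or 757 without 3 dpf array 1 or 2. The 1946 for stage became 4263 with processed signals and 3129 by probe. The counts by probe are out of 31040 probes and not 18873 genes, so they are not shifts in the same unit. With an array left out, the size rule at that stage asks only the remaining array, and a dye effect no longer cancels there. The cause of the other shifts was not tested. gnrh3 and hcrt had no value when all 4 pools had to be well above background.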
